A study of Homo sapiens with 6 samples.

Results

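The genes described here belong to the oxygen-sensing system of the hypoxia-inducible factors (HIFs). They are the HIF subunit genes HIF1A, EPAS1 and ARNT, the prolyl hydroxylase genes EGLN1 and EGLN3, and the hypoxia-responsive genes BNIP3, NDRG1, P4HA1, CA9 and ANKRD37. Members were chosen by gene symbol, taking every probe set of the array whose platform annotation gives exactly 1 gene symbol that is among the 10 named. Probe sets were found for 9 of the 10 named genes, of 18132 genes with such a probe set on the array, and CA9, a cell-surface carbonic anhydrase, was not analysed here. The 9 genes had 32 probe sets in all.

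A HIF is a pair of an alpha chain, HIF-1alpha from HIF1A or HIF-2alpha from EPAS1, and the beta chain ARNT. When oxygen is plentiful the EGLN enzymes hydroxylate prolines of the alpha chain, the VHL ubiquitin ligase then binds it, and the alpha chain is degraded. When oxygen is scarce the alpha chain persists and raises the transcription of genes for angiogenesis, glycolysis, matrix processing and mitochondrial turnover. Alpha chains are controlled mainly as proteins, and arrays measure RNA only, so neither HIF protein nor HIF activity was measured.

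The study compared RNA from cells given EPC-Exos, known to be exosomes of endothelial progenitor cells, with RNA from cells given PBS, to see how the vesicles change endothelial gene expression. The EPC-Exos group comprised 3 arrays of cells exposed to 1e+11 particles in each mL over 24 hours, and the PBS group 3 arrays of cells that received the same volume of buffer. Both groups were HMEC-1, an established line of human microvascular endothelium carrying a viral oncoprotein that immortalises it, kept without serum in MCDB131 medium, and the labels give no oxygen level. Whether replicates were grown separately is not stated in the labels, so the p-values reflect only array-to-array spread, possibly technical.

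Values are log2 signals as deposited, and a change is the log2 signal with EPC-Exos minus that with PBS. Array medians lay between 6.25 and 6.34, and no array stood apart, with correlations of 0.997 between arrays of the same group and of 0.988 to 0.989 between groups. Of 14 endothelial markers 10 lay above the highest Tag control signal of 4.97, a background guide from probe sets that match no human transcript, in each group. The defining markers CDH5, TEK, CLDN5 and EMCN lay below it. The summed linear signal of the 14 endothelial markers was 3231 to 3287 with EPC-Exos and 2395 to 2764 with PBS. In the test described below 9 of them were tested, and ENG, TIE1 and ESAM were called higher. For 8 smooth muscle and fibroblast markers the sum was 362 to 407 with EPC-Exos and 830 to 906 with PBS. Of the 5 tested, DCN, ACTA2 and PDGFRB were called lower, and CNN1 and MYH11 were not called. LUM, PDGFRA and RGS5 were below the signal filter. In a separate fit over all probe sets LUM was called lower (mean 3.67 with EPC-Exos, 5.97 with PBS), and PDGFRA and RGS5 were not called. Epithelial markers summed to 4678 to 4836 with EPC-Exos and 6811 to 7509 with PBS. Of the 4 tested, KRT18 and KRT8 were called lower, and KRT14 and EPCAM were not called. Haematopoietic markers summed to 469 to 499 with EPC-Exos and 329 to 345 with PBS. Of these 7 only CD68 passed the signal filter, and it was called higher. The sums thus need not describe every marker of a set. The part of these shifts in the results on HIF genes was not tested, and less RNA per cell cannot be told apart from fewer cells of a kind.

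Of the 8 members that passed the signal filter, 4 rose with EPC-Exos, 0 fell and 4 did not pass the test. HIF1A, BNIP3, NDRG1 and P4HA1 rose by 1.16-fold to 1.36-fold, while EPAS1, ARNT, EGLN1 and ANKRD37 were not called in the limma fit. Calls were made at an adjusted p below 0.05 (Benjamini-Hochberg) over all 11715 genes tested, each gene being read from its brightest probe set. In that fit 49.1% of all genes were called, 21.7% higher and 27.3% lower, so the share of members called is close to that of genes in general. Rises made up 44.3% of all called genes, or 54.9% when the arrays were centred on the median of the tested genes, so the balance of directions over the array depends on scaling. The median log2 change was 0.18 over the 8 members and -0.011 over all tested genes. At the threshold of the series' design text, a 1.5-fold change together with an unadjusted p below 0.05, 0 of the 8 members passed, against 9.89% of all tested genes. The groups did not overlap in 6 of the 8 members, against 55.7% of all tested genes.

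**Figure D1:**
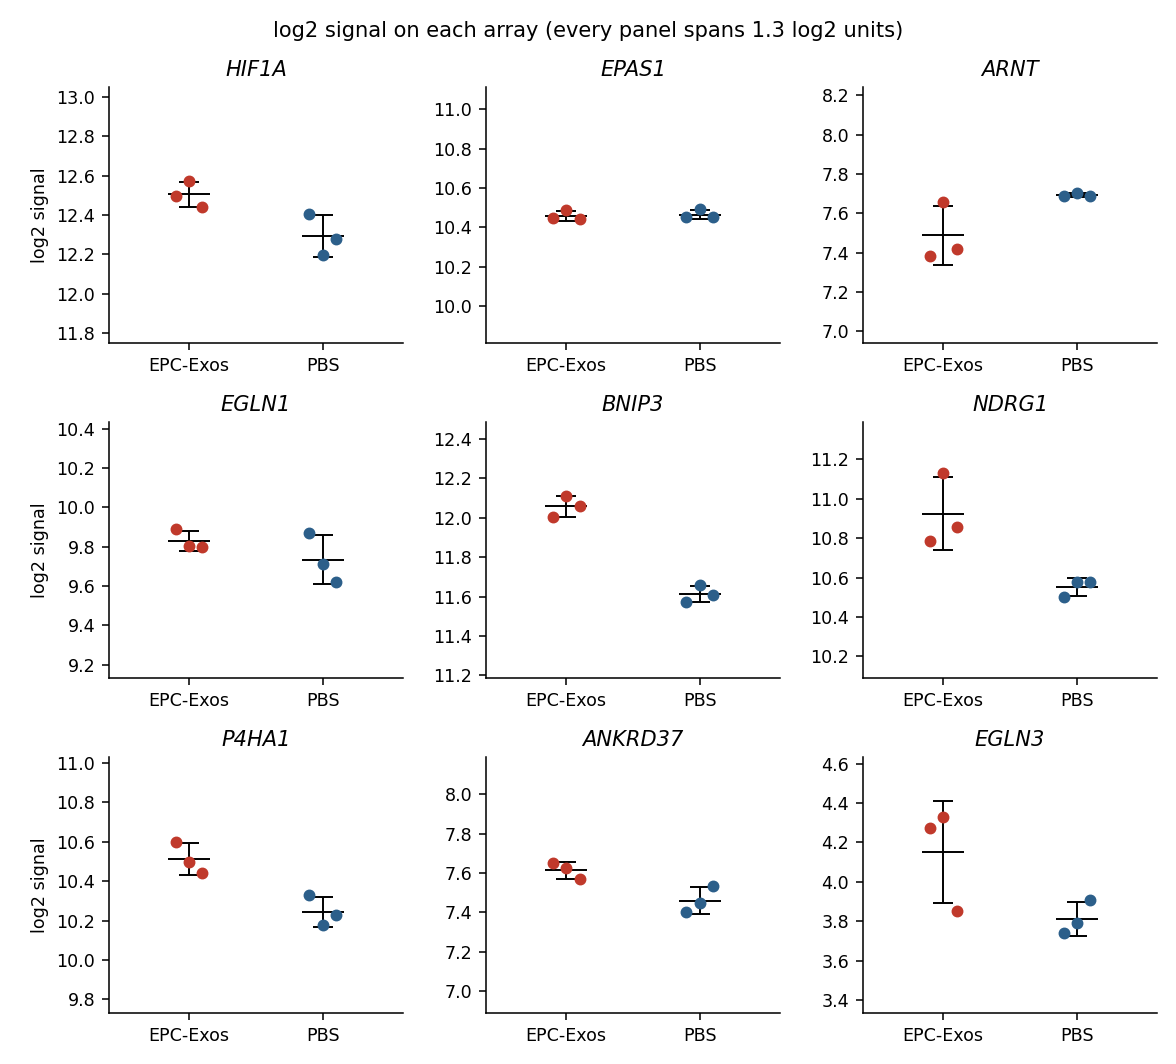
The log2 signal of each member is plotted on every array, EPC-Exos left and PBS right, for the brightest probe set, with horizontal bars for the group mean and error bars for the SD (n = 3); every panel spans the same log2 range. EPC-Exos arrays lie above all PBS arrays for HIF1A, BNIP3, NDRG1, P4HA1 and ANKRD37, and below them for ARNT, while EGLN3 lies under the background guide of 4.97 in both groups.

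HIF1A rose slightly and did so on every probe set. Its brightest probe set gave log2 signals of 12.50, 12.57 and 12.44 with EPC-Exos, against 12.41, 12.20 and 12.28 with PBS. All 3 EPC-Exos arrays lay above the PBS arrays, by 0.035 at the closest point. The change was 0.21 ± 0.048 (SE, n = 3 per group), a 1.16-fold rise with a limma adjusted p of 0.00162. Its size exceeded that of 56.3% of tested genes.

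Another 7 probe sets report HIF1A, and all 8 were called higher in the fit over every probe set on the array, where 28.4% were called, 13.6% higher and 14.8% lower. Their changes ran from 0.21 for 11718757_s_at, the brightest, to 0.40 ± 0.10 for 11718758_a_at, the dimmest. That dimmest probe set gave 9.43, 9.29 and 9.31 with EPC-Exos, against 9.12, 8.62 and 9.10 with PBS. PBS replicate 2 was the lowest array on all 8 probe sets. Probe sets of 1 gene share transcripts and can share target bases, so they are not replicates of each other.

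EPAS1, the alpha chain prominent in endothelium, showed no called change. Its brightest probe set read 10.45, 10.49 and 10.44 with EPC-Exos, against 10.45, 10.49 and 10.45 with PBS. The groups overlapped, and the change was -0.0064 ± 0.048, with a 95% interval of -0.11 to 0.095 (limma adjusted p = 0.926). Its other probe set, 11715412_a_at, had a wider interval, -0.12 to 0.36, around a change of 0.12. The bright probe set thus bounds any change of EPAS1 RNA more tightly than the dim one does.

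ARNT, the shared beta chain, gave conflicting readings. The brightest of its 5 probe sets, 11757749_s_at, read 7.39, 7.66 and 7.42 with EPC-Exos, against 7.69, 7.70 and 7.69 with PBS. EPC-Exos replicate 2 sat close to the PBS arrays and the other EPC-Exos arrays lay lower. The change was -0.20 ± 0.085 (limma adjusted p = 0.0564), and without EPC-Exos replicate 2 it was -0.29 and was called (adjusted p = 0.0116); over all alternatives its adjusted p ran from 0.0116 to 0.923.

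The second brightest ARNT probe set, 11741380_s_at, was the only 1 of the 32 member probe sets called lower. It read 6.83, 6.83 and 6.97 with EPC-Exos, against 7.27, 7.46 and 7.20 with PBS, a change of -0.44 ± 0.096 (adjusted p = 0.00169 over all probe sets). The other 3 ARNT probe sets had changes above 0, from 0.14 to 0.23, and none was called. The highest of them, 11741381_a_at, read 6.26, 6.25 and 6.28 with EPC-Exos, against 6.12, 6.09 and 5.90 with PBS, with adjusted p = 0.122. Its 95% interval, 0.0084 to 0.45, and that of 11741380_s_at, -0.64 to -0.24, do not meet, though the difference between probe sets was not tested. Without _x_at and _s_at probe sets, which can bind transcripts of related genes, ARNT was read from 11752225_a_at and its sign turned, with a change of 0.14.

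**Figure D2:**
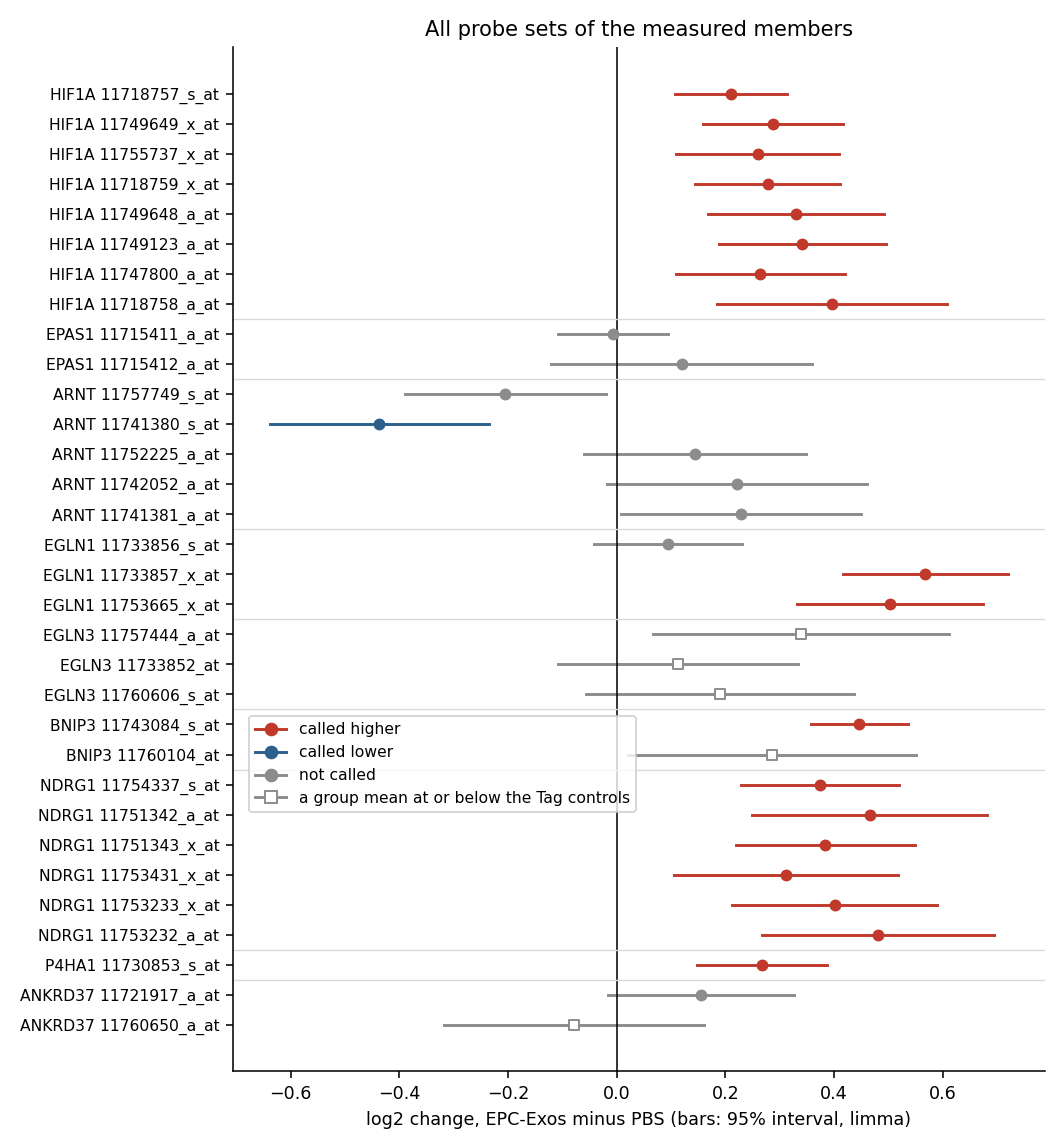
Points are the log2 change, EPC-Exos minus PBS, of all 32 member probe sets, grouped by gene and ordered by brightness within a gene; lines are 95% intervals from limma. All 8 HIF1A and all 6 NDRG1 probe sets were called higher, while the probe sets of ARNT lie on both sides of 0 and those of EGLN1 part into 1 near 0 and 2 at 0.50 and 0.57.

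EGLN1 encodes PHD2, regarded as the main oxygen sensor that marks HIF alpha chains for VHL, and it is itself raised by HIF. Its brightest probe set, 11733856_s_at, read 9.89, 9.80 and 9.80 with EPC-Exos, against 9.87, 9.71 and 9.62 with PBS. PBS replicate 1 lay among the EPC-Exos arrays, and the change of 0.094 ± 0.065 was not called (limma adjusted p = 0.258). Without PBS replicate 1 the change was 0.16 and was called (adjusted p = 0.0324), without PBS replicate 3 it was 0.038 and was not (adjusted p = 0.675), and over all alternatives the adjusted p ran from 2.97e-05 to 0.675.

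The other EGLN1 probe sets differ from it and were both called higher. For 11733857_x_at the signals were 8.41, 8.51 and 8.47 with EPC-Exos, against 7.90, 7.85 and 7.94 with PBS, a change of 0.57 ± 0.072 and a 1.48-fold rise (adjusted p = 7e-06 over all probe sets). For 11753665_x_at they were 7.87, 8.07 and 7.98 with EPC-Exos, against 7.50, 7.47 and 7.44 with PBS, a change of 0.50 ± 0.081 (adjusted p = 9.32e-05). Both groups stand clearly apart on these probe sets. The change of 0.57 is the largest of any member probe set, and its interval, 0.42 to 0.72, lies above that of the brightest probe set, -0.042 to 0.23. The probe sets called higher are of the _x_at kind and the brightest is of the _s_at kind, and either kind can cross-hybridise. Whether EGLN1 RNA rose thus depends on the probe set read. With the mean of its probe sets EGLN1 was called, at 0.39 ± 0.056.

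EGLN3 encodes PHD3, a hydroxylase whose RNA is strongly induced by hypoxia in many cells. It was at background in both groups and below the signal filter. Its brightest probe set read 4.27, 4.33 and 3.85 with EPC-Exos, against 3.74, 3.79 and 3.91 with PBS. The groups overlapped, and the change of 0.34 ± 0.13 was not called (adjusted p = 0.0601 in the fit over all probe sets). The other EGLN3 probe sets averaged 3.62 and 3.57 with EPC-Exos, against 3.51 and 3.38 with PBS. All means lie under the Tag guide of 4.97, where compression can make a change look too small.

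Among the hypoxia-responsive members, the promoter windows of BNIP3, P4HA1, ANKRD37 and EGLN1 are shown because these genes are known to respond to HIF, have a probe set above background and have a window with a match. The window of EGLN3 held 0 matches and is not printed, and none is shown for NDRG1. A HIF binds a core of letters ACGTG or GCGTG. Windows of 300 bases, 250 before and 50 after the annotated start, were taken from RefSeq's GRCh38.p14 and searched on both strands for both cores; the run CACGTG, which reads the same on either strand, counts as 2 matches. The windows are chr10:131981874-131982173 on the minus strand for BNIP3, chr10:73096817-73097116 on the minus strand for P4HA1, chr4:185396591-185396890 on the plus strand for ANKRD37 and chr1:231422238-231422537 on the minus strand for EGLN1. They are written along the gene's strand, 5′ to 3′, with matches to either core in capitals.
BNIP3: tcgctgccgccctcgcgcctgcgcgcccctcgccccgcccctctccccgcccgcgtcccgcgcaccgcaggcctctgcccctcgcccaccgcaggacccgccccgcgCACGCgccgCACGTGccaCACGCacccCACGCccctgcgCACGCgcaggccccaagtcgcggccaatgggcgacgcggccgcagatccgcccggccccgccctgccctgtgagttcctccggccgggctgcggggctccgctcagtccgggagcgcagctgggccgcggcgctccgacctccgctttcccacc
P4HA1: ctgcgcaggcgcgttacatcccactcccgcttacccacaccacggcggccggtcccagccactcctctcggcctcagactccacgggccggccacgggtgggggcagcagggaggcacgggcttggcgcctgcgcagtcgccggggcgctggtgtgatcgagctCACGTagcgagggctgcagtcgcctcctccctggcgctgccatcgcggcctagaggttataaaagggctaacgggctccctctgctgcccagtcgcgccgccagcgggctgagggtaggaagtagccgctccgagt
ANKRD37: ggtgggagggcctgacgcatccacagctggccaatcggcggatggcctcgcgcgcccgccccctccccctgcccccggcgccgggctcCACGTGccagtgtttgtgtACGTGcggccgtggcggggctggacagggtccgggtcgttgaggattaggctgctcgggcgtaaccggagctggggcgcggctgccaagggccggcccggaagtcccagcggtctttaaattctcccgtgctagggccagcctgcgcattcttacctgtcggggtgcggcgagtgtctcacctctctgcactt
EGLN1: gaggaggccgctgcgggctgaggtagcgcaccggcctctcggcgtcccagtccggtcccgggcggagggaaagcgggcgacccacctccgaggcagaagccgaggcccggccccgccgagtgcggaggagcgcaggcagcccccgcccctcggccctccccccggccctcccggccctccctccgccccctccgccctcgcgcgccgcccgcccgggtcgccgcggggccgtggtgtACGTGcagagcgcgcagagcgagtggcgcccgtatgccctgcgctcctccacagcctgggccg
BNIP3 held 6 matches, starting between -143 and -104 from the start site. ANKRD37 held 3 matches, starting at -162, -161 and -143, P4HA1 held 1 at -86, and EGLN1 held 1 at -13. Windows were used for 9 members, CA9 among them though it was not measured, and no window was used for NDRG1. Of these 10 windows 7 held at least 1 match, that of CA9 included, and 48.4% of all 35116 windows searched did. A match is a description of letters, not of binding, and nothing about the changes is read from it.

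BNIP3, a receptor on the outer mitochondrial membrane that sends mitochondria to autophagy, had the largest change among the tested members. Its brightest probe set, of the _s_at kind, read 12.00, 12.11 and 12.06 with EPC-Exos, against 11.57, 11.66 and 11.61 with PBS. The 3 EPC-Exos arrays lay well above the PBS arrays, and the spread within each group was small. The change was 0.45 ± 0.041, a 1.36-fold rise with a limma adjusted p of 1.5e-07, larger than that of 83.1% of tested genes. A second BNIP3 probe set, 11760104_at, lay at the background guide, with means of 5.02 ± 0.20 with EPC-Exos and 4.74 ± 0.099 with PBS (SD, n = 3), and was not called.

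NDRG1, a cytoplasmic protein gene raised by hypoxia and other stresses, rose on all 6 of its probe sets. The brightest read 10.79, 11.13 and 10.86 with EPC-Exos, against 10.50, 10.58 and 10.58 with PBS. EPC-Exos replicate 2 was the highest array on all 6 probe sets, and the groups did not overlap on any of them. The change was 0.37 ± 0.070, a 1.3-fold rise (limma adjusted p = 0.000305), and it was 0.27 without EPC-Exos replicate 2 (adjusted p = 0.00171; range over all alternatives 8.85e-06 to 0.00831). Over the 6 probe sets the change ran from 0.31 to 0.48.

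P4HA1, a catalytic subunit of the prolyl hydroxylase that stabilises collagen, has 1 probe set, of the _s_at kind. It read 10.60, 10.50 and 10.44 with EPC-Exos, against 10.33, 10.18 and 10.23 with PBS. The groups did not overlap. The change was 0.27 ± 0.057, a 1.2-fold rise with a limma adjusted p of 0.00095.

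ANKRD37, a small ankyrin-repeat protein gene known as a HIF target, sat at the edge of the test. Its bright probe set read 7.65, 7.63 and 7.57 with EPC-Exos, against 7.40, 7.44 and 7.53 with PBS. All EPC-Exos arrays lay above the PBS arrays, but by only 0.035 at the closest point, and the change of 0.15 ± 0.077 was not called (limma adjusted p = 0.111). It was called with quantile normalization (0.18, adjusted p = 0.0411), with each array centred on its median (0.18, adjusted p = 0.0388) and with the median of the tested genes as the centre (0.21, adjusted p = 0.0234); the highest adjusted p over all alternatives was 0.736. The other probe set of ANKRD37 was at background, with means of 3.39 with EPC-Exos and 3.47 with PBS.

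**Figure D3:**
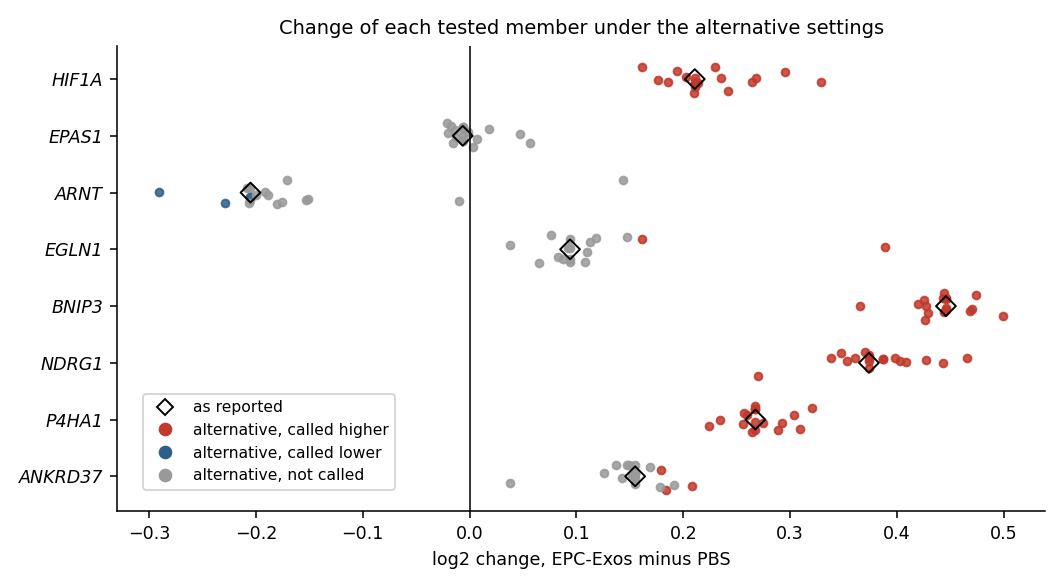
Each point is the log2 change of a tested member under 1 alternative setting, coloured by whether it was called there, and the diamond is the value given in the text. BNIP3 (0.37 to 0.50), NDRG1 (0.27 to 0.47), P4HA1 (0.22 to 0.32) and HIF1A (0.16 to 0.33) were called higher in every alternative that gave a value, while EPAS1 and ARNT lie on both sides of 0.

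The genes whose profiles over the 6 arrays lay nearest to those of the 3 members with the largest called change were named by the root mean square difference of log2 signals, each centred on its own mean. For BNIP3 they were NDUFAF5 (0.011), SLC1A5 (0.013) and CKAP4 (0.015). For NDRG1 they were PARP10 (0.045), AGTRAP (0.048) and NOP9 (0.049), and for P4HA1 they were AIDA (0.025), HSP90B1 (0.028) and BICD2 (0.029). The changes of these genes were 0.44 to 0.46 for those nearest BNIP3, 0.32 to 0.34 for those nearest NDRG1 and 0.24 to 0.26 for those nearest P4HA1. The profiles include the difference between the groups, so changes close to that of the member follow from the way these genes were picked.

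Other genes of the pathway moved in both directions. Over the lists that follow, 91 further genes were tested, 42 rose, 27 fell and 22 were not called; their median log2 change was 0.12. That is 75.8% called, beside 49.1% of all tested genes, and the lists were chosen with earlier results known. Each gene was read from 1 probe set, for VHL and CA12 of the _x_at kind and for P4HTM and CREBBP of the _s_at kind. Values of their other probe sets are not given here.

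Of 11 tested genes for oxygen sensing and HIF partners, 2 rose, 5 fell and 4 were not called, and the median change was -0.086. P4HTM, a membrane-bound prolyl hydroxylase, fell, with signals of 7.51, 7.63 and 7.57 with EPC-Exos, against 8.32, 8.50 and 8.58 with PBS (change -0.90 ± 0.080). CITED2, which competes with HIF alpha chains for the coactivators CREBBP and EP300, fell as well, with 9.69, 9.78 and 9.63 with EPC-Exos, against 10.57, 10.54 and 10.50 with PBS (-0.84 ± 0.055). Neither gene's groups overlapped. VHL, the subunit that recognises hydroxylated alpha chains, changed by -0.33 ± 0.061, and the coactivator gene CREBBP by -0.38 ± 0.050; among these 4 genes limma's adjusted p was lowest for CITED2 (2.62e-09) and highest for VHL (0.000248).

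The remaining parts of the ligase, named after their values were seen, did not move together: ELOC (0.32 ± 0.052) and CUL2 (0.27 ± 0.063) rose, ELOB fell (-0.25 ± 0.038), and RBX1 was not called (0.036 ± 0.049). HIF1AN, the asparagine hydroxylase that blocks coactivator binding, was not called either (-0.086 ± 0.077), nor were EP300 (-0.067 ± 0.094) and HIF3A (0.21 ± 0.10).

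Of 33 other hypoxia targets, 19 rose, 9 fell and 5 were not called, and the median change was 0.41. The largest changes were in ANGPTL4, a secreted lipase inhibitor (3.22 ± 0.057), the lipid droplet coat gene PLIN2 (1.65 ± 0.053), the carbonic anhydrase gene CA12 (1.47 ± 0.10) and the collagen crosslinking oxidase gene LOX (1.01 ± 0.065). ANGPTL4 read 11.91, 11.80 and 11.89 with EPC-Exos, against 8.55, 8.67 and 8.71 with PBS. ANGPTL4 and PLIN2 are also known targets of lipid-sensing receptors, and the list as a whole is not specific to HIF. Genes of this list that fell, named after their values were seen, include the BNIP3 paralog BNIP3L (-0.53 ± 0.067), DDIT4, an inhibitor of mTORC1 (-0.39 ± 0.052), and the transferrin receptor gene TFRC (-0.52 ± 0.038).

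Of 23 genes listed as HIF targets of glucose uptake and glycolysis, 14 rose, 2 fell and 7 were not called, and the median change was 0.20. The list also holds genes of neighbouring steps, among them GYS1, GBE1 and PDK1. The largest changes were in the hexokinase gene HK2 (0.98 ± 0.067), the glycogen synthase gene GYS1 (0.79 ± 0.075), PFKFB3, which makes an activator of phosphofructokinase (0.68 ± 0.061), and the aldolase gene ALDOC, which fell (-0.79 ± 0.072). The glucose transporter gene SLC2A1, named after its values were seen, was not called (-0.12 ± 0.051, adjusted p = 0.0582).

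**Figure D4:**
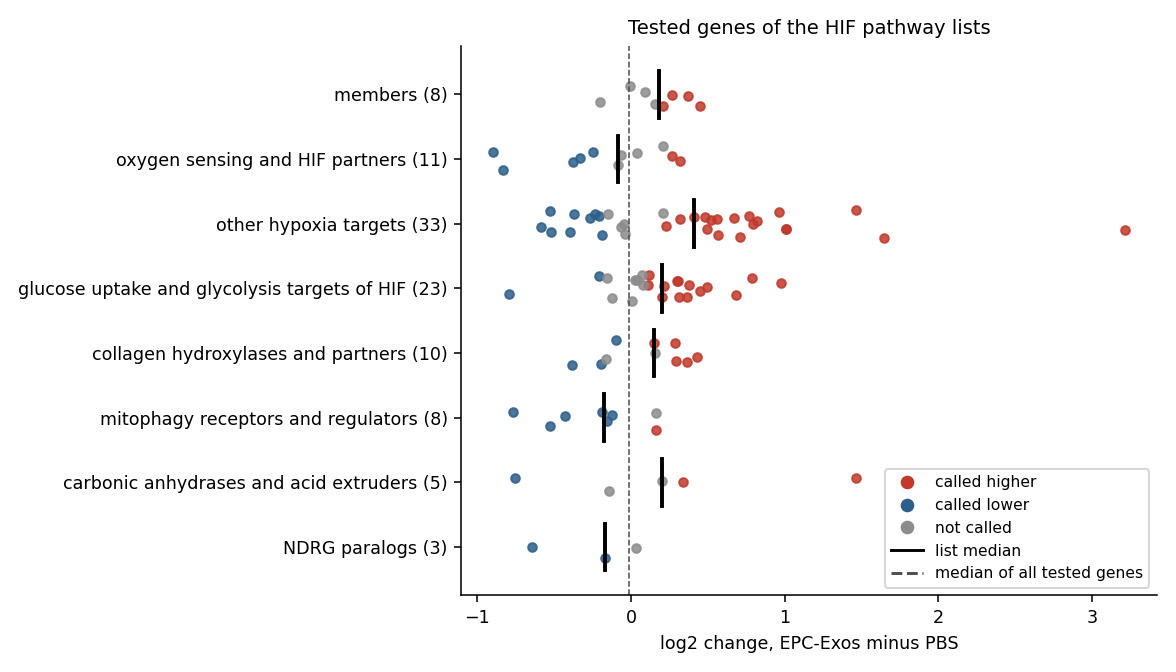
Each point is the log2 change, EPC-Exos minus PBS, of a tested gene in the named list, with the number tested in brackets; black bars are list medians and the dashed line is the median of all tested genes, -0.011. The other hypoxia targets spread widest, up to 3.22 for ANGPTL4, while the members lie between -0.20 and 0.45.

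Close relatives of the members did not share their direction in every case. Beside P4HA1, 10 genes for collagen hydroxylases and their partners were tested, of which 5 rose, 3 fell and 2 did not pass. P4HA2, the other main catalytic subunit, rose with signals of 11.27, 11.34 and 11.23 with EPC-Exos, against 10.80, 10.84 and 10.93 with PBS (0.43 ± 0.049). The lysyl hydroxylase gene PLOD3 (0.36 ± 0.061) and P3H3 (0.29 ± 0.097) rose, and P3H2, a prolyl 3-hydroxylase gene, fell (-0.39 ± 0.084). P4HB, the beta subunit that pairs with P4HA1 and was named after its values were seen, fell by 0.095 ± 0.038 (limma adjusted p = 0.0482).

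Beside BNIP3, 8 mitophagy genes were tested, of which 1 rose, 6 fell and 1 was not called, and the median change was -0.17. BNIP3L read 10.27, 10.40 and 10.24 with EPC-Exos, against 10.97, 10.68 and 10.84 with PBS, the opposite direction to BNIP3. PINK1, the kinase that marks damaged mitochondria (-0.77 ± 0.071), the autophagy receptor gene OPTN (-0.43 ± 0.062) and BCL2L13 (-0.19 ± 0.061) fell too. PHB2, named after its values were seen, was the 1 that rose (0.16 ± 0.040).

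Of the NDRG1 paralogs, NDRG4 (-0.65 ± 0.10) and NDRG3 (-0.17 ± 0.052) fell and NDRG2 was not called (0.029 ± 0.12). NDRG4 read 6.09, 6.18 and 6.07 with EPC-Exos, against 6.59, 6.86 and 6.84 with PBS, with no overlap. Of 5 tested genes for carbonic anhydrases and acid extruders, 2 rose, 1 fell and 2 did not pass, and another 6 lay below the signal filter. CA12, a membrane-bound relative of CA9, read 7.45, 7.66 and 7.56 with EPC-Exos, against 6.11, 5.89 and 6.27 with PBS, and the bicarbonate cotransporter gene SLC4A7 rose by 0.34 ± 0.074. CA11, a relative without enzyme activity, fell (-0.75 ± 0.11).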

How the data were processed

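Total RNA of 6 HMEC-1 samples was hybridised to Affymetrix 3' IVT arrays, and the authors deposited 1 log2 signal for each of 49395 probe sets per array. Per the submitters' processing notes MAS5 was among the tools, with no role given; other steps are not given in the sources used here. The log2 scale was read from the range of values, 2.47 to 14.52, and the deposited scaling was kept. Array number limits precision.

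Names came from the platform annotation, in which 44988 probe sets had 1 gene symbol, 1832 several, 2473 none here, and 102 were controls. A gene was read from its probe set with the highest mean over 6 arrays and tested where that mean reached the 40th percentile of all non-control probe sets (5.45 as log2 signal). The groups, taken from sample titles, were tested using limma 3.58.1 under R 4.3.3 (trend of variance on signal, group as the only term, two-sided), with Benjamini-Hochberg adjustment over 11715 genes. A second fit covered all 49293 non-control probe sets without a filter and gives the values of further probe sets. Errors of changes are limma's moderated SE.

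On simulated data for this comparison over 11715 genes, 59.7% of 67 genes changed by a fold of 1.2, 97% of 67 changed by 1.5 and 100% of 66 changed by 2 were called, with 11 false calls. Only these genes were changed there, with independent noise, whereas 49.1% of genes were called in the data. The adjustment depends on that share, so these rates need not hold for the member calls. The members and gene lists were chosen with earlier results of these data known. Named genes are all members, up to 4 called genes of each list by size of change, and the 3 nearest profiles of up to 3 members; others are said to be named after their values were seen. Alternatives were scaling, an offset of 16, the filter, the choice of probe sets, the variance trend, array weights, a replicate block and leaving out each array. Centring on the median of the tested genes was chosen after seeing the data. No 2 arrays shared over 24 identical values. The ratios of 3' to 5' control signals of ACTB, as log2, were 0.52 with EPC-Exos and 0.51 with PBS.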

Additional observations from a re-analysis of the deposited data

How the results depend on the processing

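Over the 18 alternatives, HIF1A and NDRG1 stayed called higher in all 18, and BNIP3 and P4HA1 in all 17 that gave them a value. Without _x_at and _s_at probe sets the number of members called higher was 2, since BNIP3 and P4HA1 then had no tested probe set. EGLN1 had none either, but it was not called in the main fit. The members called lower numbered 1, which was ARNT, with array weights and with the replicate block. Without the variance trend 12 of the 32 member probe sets were called, against 19 with it. Of all 49293 probe sets 28.4% were called with the trend, and the share without it is not given. That fit had no signal filter, whereas only 5 of the 32 member probe sets had a group mean at or below the Tag guide. The share of all probe sets is thus not a like-for-like background for the member count. Leaving out each array gave 4 to 5 members called higher, 0 to 1 called lower and 16 to 20 member probe sets called. EPAS1 took the opposite sign, uncalled, with each array centred on its median (0.018), on the median of the tested genes (0.047), with the mean of its probe sets (0.057), without EPC-Exos replicate 3 (0.0028) and without PBS replicate 2 (0.0068); without each array in turn it ranged from -0.020 to 0.0068. ARNT turned to 0.14 without _x_at and _s_at probe sets, and its range without each array was -0.29 to -0.15. The cause of these shifts was not tested. All tested genes called ranged from 4849 to 6118 and list genes called from 57 to 71. Same-numbered arrays of the 2 groups correlated in their deviations from group means at 0.20, 0.18 and 0.077, and different-numbered arrays at -0.19 to 0.022, so each array correlated best with its own number, a hint from the data only; the replicate block gave 6118 calls against 5748. Signal near the background limits EGLN3 and the dim probe sets of BNIP3 and ANKRD37.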
